A study of Mus musculus with 6 samples.

Results

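The genes described here form the transcriptional side of the integrated stress response around Atf4: the transcription factor Atf4 itself and 7 genes known as its targets, Ddit3, Trib3, Asns, Chac1, Psat1, Phgdh and Ddit4. They were taken by name, as every probe set in the table that is annotated to exactly 1 of the 8 symbols, with weak signals kept. This gave 13 probe sets for 7 of the 8 genes, out of 19551 probe sets that are not array controls. Trib3, a pseudokinase, had no probe set with its single symbol in the table used.

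The tissue was the anterior 2/3 of the presomitic mesoderm (PSM), the unsegmented tissue that gives rise to somites, dissected from mouse embryos at embryonic day 8.75. Total RNA from pools of 3 PSMs was hybridised to Affymetrix 3' expression arrays, 1 array per pool, for 3 pools of genotype R26R AC/AC, called control, and 3 of genotype R26R AC/AC;T-Cre, called mutant. The strain is labelled C57BL6/6J. Both genotypes carry the AC allele at the ROSA26 locus on both chromosomes, and they differ in the T-Cre transgene, in which the T (Brachyury) promoter drives Cre recombinase in the primitive streak and the mesoderm derived from it. The labels do not spell AC out; it is known to stand for A-CREB, a dominant-negative inhibitor of CREB family transcription factors that Cre turns on. There was no group with T-Cre but without AC, so an effect of Cre and one of AC cannot be told apart.

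In the integrated stress response, kinases that sense unfolded protein, lack of amino acids, double-stranded RNA or lack of heme phosphorylate the translation initiation factor eIF2 alpha. Most translation then falls while translation of Atf4 mRNA rises, so that the protein can increase without more mRNA, and Atf4 switches on genes of amino acid synthesis and uptake together with stress regulators. Atf4 belongs to the same bZIP superfamily as CREB and binds a composite C/EBP-ATF element in many of its targets.

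That element was looked for in RefSeq's windows of 300 bases around the gene starts (250 before and 50 after, build GRCm38.p6), where all 8 genes had an entry and Psat1 had 2. With the letters TGATGNAA on either strand, it was found in 3 of the 8 genes, Asns, Chac1 and Trib3, against 3.97% of all 32851 windows. The core of the cAMP response element, to which CREB binds, with the letters TGACG on either strand, was found in 4 genes, Atf4, Trib3, Asns and Chac1, against 20.8% of windows, and its full palindrome TGACGTCA, which contains that core, in 0 genes against 1.79%. Such matches describe the letters only. The 250 bases before the start are printed for Asns and Chac1, which hold the composite element there, and for Phgdh and Ddit4, which hold no match and gave the clearest higher signals in mutant, in lower case and in the direction of transcription, with matches to TGATGNAA and TGACG in capitals.
Asns, chr6:7693210-7693459, minus strand: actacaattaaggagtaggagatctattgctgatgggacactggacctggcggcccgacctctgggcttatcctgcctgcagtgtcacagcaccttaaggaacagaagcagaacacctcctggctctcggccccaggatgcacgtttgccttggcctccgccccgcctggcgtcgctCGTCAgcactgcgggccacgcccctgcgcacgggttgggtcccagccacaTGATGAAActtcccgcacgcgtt
Chac1, chr2:119350992-119351241, plus strand: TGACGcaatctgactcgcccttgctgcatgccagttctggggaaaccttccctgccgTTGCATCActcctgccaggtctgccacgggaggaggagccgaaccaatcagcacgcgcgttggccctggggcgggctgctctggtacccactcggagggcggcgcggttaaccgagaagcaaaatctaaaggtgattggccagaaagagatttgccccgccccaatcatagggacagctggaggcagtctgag
Phgdh, chr3:98339970-98340219, minus strand: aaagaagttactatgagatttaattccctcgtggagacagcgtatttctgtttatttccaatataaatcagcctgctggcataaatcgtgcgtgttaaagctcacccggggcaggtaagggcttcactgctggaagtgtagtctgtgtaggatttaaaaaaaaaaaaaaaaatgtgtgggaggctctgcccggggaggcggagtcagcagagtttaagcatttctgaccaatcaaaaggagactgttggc
Ddit4, chr10:59951771-59952020, minus strand: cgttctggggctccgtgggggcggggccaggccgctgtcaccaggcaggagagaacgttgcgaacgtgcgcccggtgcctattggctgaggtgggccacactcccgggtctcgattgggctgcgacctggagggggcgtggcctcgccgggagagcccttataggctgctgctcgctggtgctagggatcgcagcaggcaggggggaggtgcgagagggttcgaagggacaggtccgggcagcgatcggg
The Asns match to the composite element begins 23 bases before the start, and that of Chac1, on the other strand, 193 bases before it.

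None of the 13 probe sets passed the test between genotypes. With limma fitted over all 19551 probe sets on log2(signal + 1), 0 of 13 had a Benjamini-Hochberg adjusted p under 0.05, against 0.558% of all probe sets (0.24% higher and 0.317% lower), and the adjusted p of the members lay between 0.198 and 0.988. At an adjusted p under 0.1 there were also 0, against 1.54%. At an unadjusted p under 0.05 there were 6, of which 3 belong to Phgdh, against 12.8% of all probe sets. Signals did not overlap between genotypes for 7 probe sets (19.1% of all probe sets), 6 with the mutant pools above (10.9% of all probe sets) and 1 with them below (8.19%). As 4 of these 6 measure Phgdh, the count by gene is smaller: at the probe set with the highest signal of each gene, 0 of 7 genes passed (0.807% of 10290 genes), 3 had genotypes that did not overlap (21.3%), with the mutant pools above in all 3 (11.8%) and below in 0 (9.49%). The 95% confidence interval of the fold change stayed within 2-fold either way for 12 of the 13 probe sets, the exception being Ddit4 with an upper bound of 2.07. With array quality weights, where 902 of all probe sets passed in place of 109, 4 members did: Ddit4 (log2 difference 0.79, adjusted p = 0.0404) and Phgdh probe sets 1437621_x_at (0.39, adjusted p = 0.0331), 1454714_x_at (0.42, adjusted p = 0.0302) and 1456584_x_at (0.45, adjusted p = 0.0456).

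**Figure D1:**
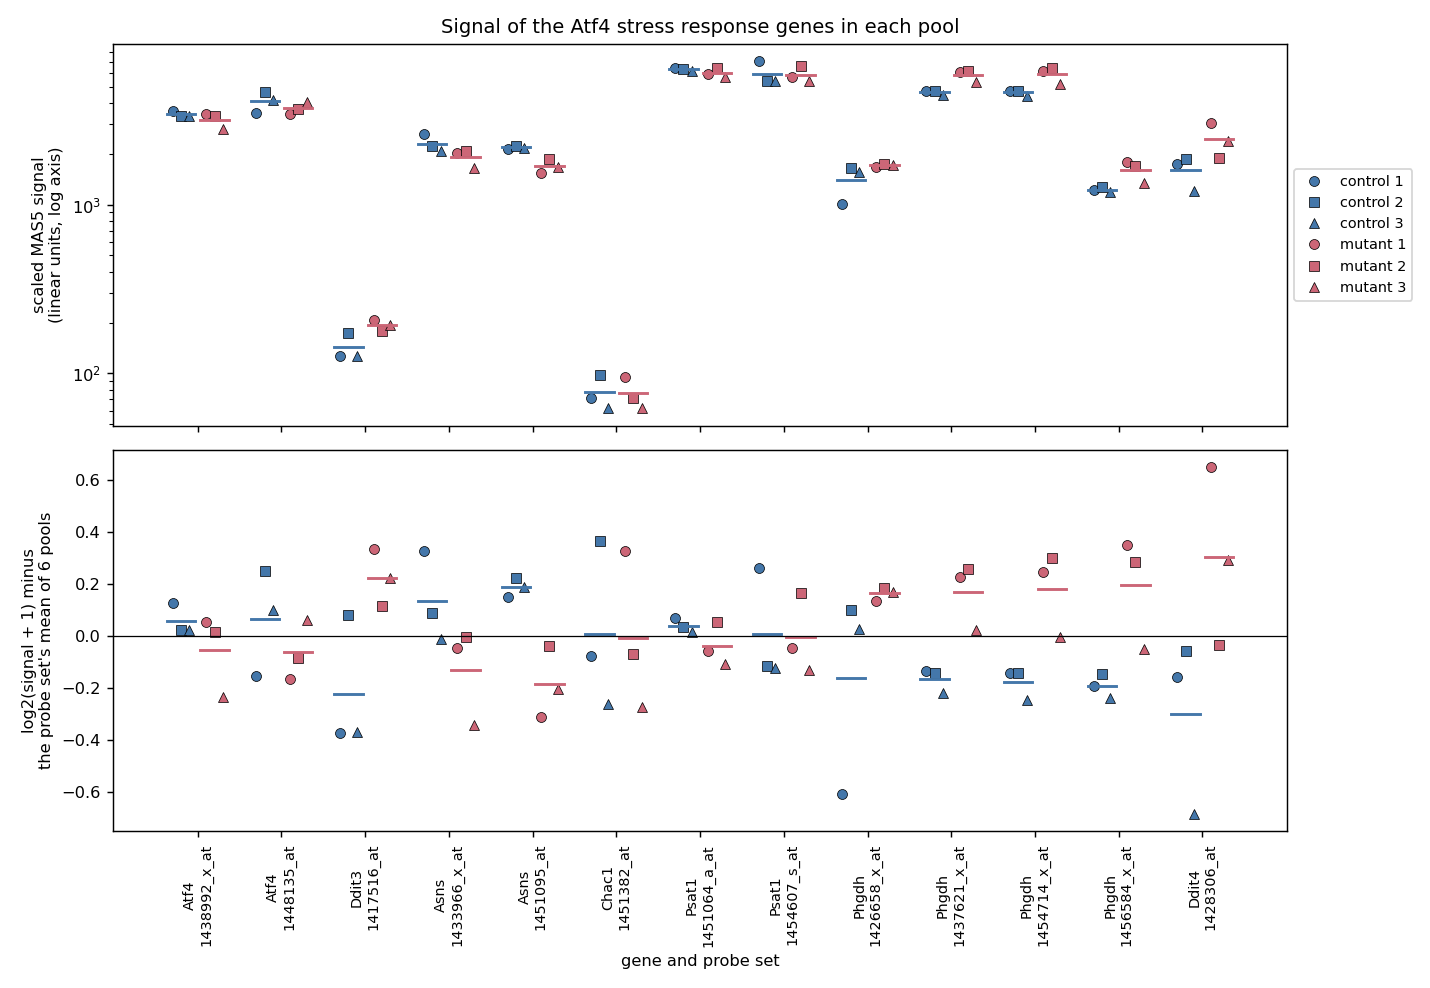
Scaled signal of each member probe set in the 3 control pools (blue) and 3 mutant pools (red) on a log axis (top), and the log2 value minus the mean of all 6 pools for the same probe set (bottom); symbols mark the pool number and short lines the group means. Mutant pools lie above control pools for Ddit3, all 4 probe sets of Phgdh and Ddit4, and below them for 1 probe set of Asns. For the rest the ranges of the genotypes overlap, with some mutant pools outside the control range.

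Atf4, the transcription factor of the response, was measured by 2 probe sets, and in both the genotypes overlapped. Probe set 1448135_at read 3483, 4614 and 4161 in control pools 1, 2 and 3 and 3456, 3662 and 4049 in mutant pools 1, 2 and 3. Its log2 difference (mutant minus control) was −0.13 (SE 0.13, n = 3 pools per genotype, limma adjusted p = 0.721), a fold change of 0.915 with a 95% interval of 0.755 to 1.11. The second probe set, 1438992_x_at, of a kind that can cross-hybridise, read 3590, 3345 and 3343 in control and 3417, 3328 and 2798 in mutant. Only mutant pool 3 lay outside the control range of that probe set by more than the width of the range, and the fold change was 0.925 (0.779 to 1.10). Both intervals lie between 0.755-fold and 1.11-fold, which bounds the change in Atf4 signal; the amount of Atf4 protein was not measured.

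Ddit3, or CHOP, a transcription factor of the C/EBP family that is known for promoting cell death when stress persists, gave a weak signal. It read 127, 174 and 127 in control and 208, 178 and 192 in mutant. All mutant values were above the control values, but control pool 2 came close to mutant pool 2. The log2 difference was 0.45 (SE 0.20, adjusted p = 0.382), or 1.36-fold (1.00 to 1.85). At the 21.9th percentile of mean signal over all probe sets, its probe set, with that of Chac1, was below the 40th percentile that the other 11 exceeded. Detection calls were not analysed here.

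Chac1, an enzyme that breaks down glutathione a strongly responsive Atf4 target in cultured cells, lay lower still, at the 6.50th percentile. It read 71.3, 97.2 and 62.6 in control and 94.6, 71.5 and 62.0 in mutant. The ranges nearly coincided, with a fold change of 0.990 (0.662 to 1.48, adjusted p = 0.988). Changes within that interval remain compatible with these values (SE 0.26 log2 units), and the sign of the difference turned with the pool left out.

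Asns, asparagine synthetase, makes asparagine from aspartate and glutamine and is a standard readout of amino acid shortage. Probe set 1451095_at read 2121, 2234 and 2177 in control and 1540, 1862 and 1659 in mutant. Control pools were tightly grouped, and each mutant pool was below all of them. The log2 difference was −0.37 (SE 0.12, adjusted p = 0.208), a fold change of 0.773 (0.647 to 0.922). In 1433966_x_at the values were 2607, 2211 and 2064 in control against 2016, 2072 and 1639 in mutant, where mutant pool 2 exceeded control pool 3, and the fold change was 0.832 (0.675 to 1.03, adjusted p = 0.458). Both probe sets of Asns thus had lower means in mutant, opposite in sign to Ddit3, Phgdh and Ddit4.

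Phgdh and Psat1 encode consecutive enzymes of serine synthesis from a glycolytic intermediate. Phgdh had higher means in mutant, while the log2 differences of Psat1 lay near 0 (−0.08 and −0.01) with intervals that include 0. The difference between the genes was not tested. Phgdh was measured by 4 probe sets, which share a target and are not independent of each other. Probe set 1437621_x_at, the member with the smallest p, read 4733, 4717 and 4463 in control and 6092, 6212 and 5284 in mutant. Its log2 difference was 0.33 (SE 0.10, adjusted p = 0.198), or 1.26-fold (1.08 to 1.47). Nearly the same was seen in 1454714_x_at, with 4728, 4731 and 4407 against 6187, 6422 and 5204 and a 1.28-fold difference (1.08 to 1.51, adjusted p = 0.1996). The weaker 1456584_x_at read 1221, 1262 and 1182 in control and 1778, 1700 and 1348 in mutant, 1.31-fold higher (1.06 to 1.61, adjusted p = 0.259). In these 3 probe sets control pools lay close together, mutant pools 1 and 2 were high, and mutant pool 3 lay between them and the controls.

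The fourth Phgdh probe set, 1426658_x_at, behaved differently among the controls. It read 1003 in control pool 1 but 1638 and 1556 in control pools 2 and 3, against 1679, 1738 and 1720 in mutant. Its 1.25-fold difference (0.955 to 1.64, adjusted p = 0.484) rested on control pool 1, without which the log2 difference dropped from 0.32 to 0.10. A probe set annotated to both Phgdh and Gm8096, and so not a member, showed the same low value in control pool 1, with 796 against 1471 and 1504 in the other controls and 1443, 1580 and 1538 in mutant. All 4 member probe sets of Phgdh end in _x_at, the suffix for probes that can bind other transcripts. A further probe set, annotated to Phgdh and Gm6756, read 1453, 1561 and 1365 in control and 2231, 1993 and 1460 in mutant, where mutant pool 3 fell within the control range.

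Psat1, phosphoserine aminotransferase, was measured by 2 probe sets with strong signals. Probe set 1451064_a_at read 6466, 6313 and 6220 in control and 5923, 6398 and 5709 in mutant, a fold change of 0.948 (0.822 to 1.09, adjusted p = 0.776). In 1454607_s_at control pool 1 was highest at 7051, the other controls read 5421 and 5403, and mutant pools read 5689, 6585 and 5369, with a fold change of 0.991 (0.811 to 1.21, adjusted p = 0.979). The genotypes overlapped in both. Psph, which catalyses the last step of serine synthesis, read 1076, 955 and 1084 in control and 1496, 1311 and 1087 in mutant, 1.24-fold higher (0.994 to 1.55, adjusted p = 0.404).

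Ddit4, or REDD1, an inhibitor of mTORC1 signalling that is known to respond to Atf4, p53, hypoxia and glucocorticoids, had the widest difference among the members. It read 1735, 1860 and 1203 in control and 3035, 1886 and 2368 in mutant. Mutant pool 2 barely exceeded control pool 2, while mutant pool 1 was far above every other pool and control pool 3 far below. The log2 difference was 0.60 (SE 0.20, adjusted p = 0.237), or 1.52-fold (1.11 to 2.07). It dropped to 0.41 without control pool 3 and to 0.43 without mutant pool 1, and was 0.67 to 0.77 without control pool 1, control pool 2 or mutant pool 2.

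**Figure D2:**
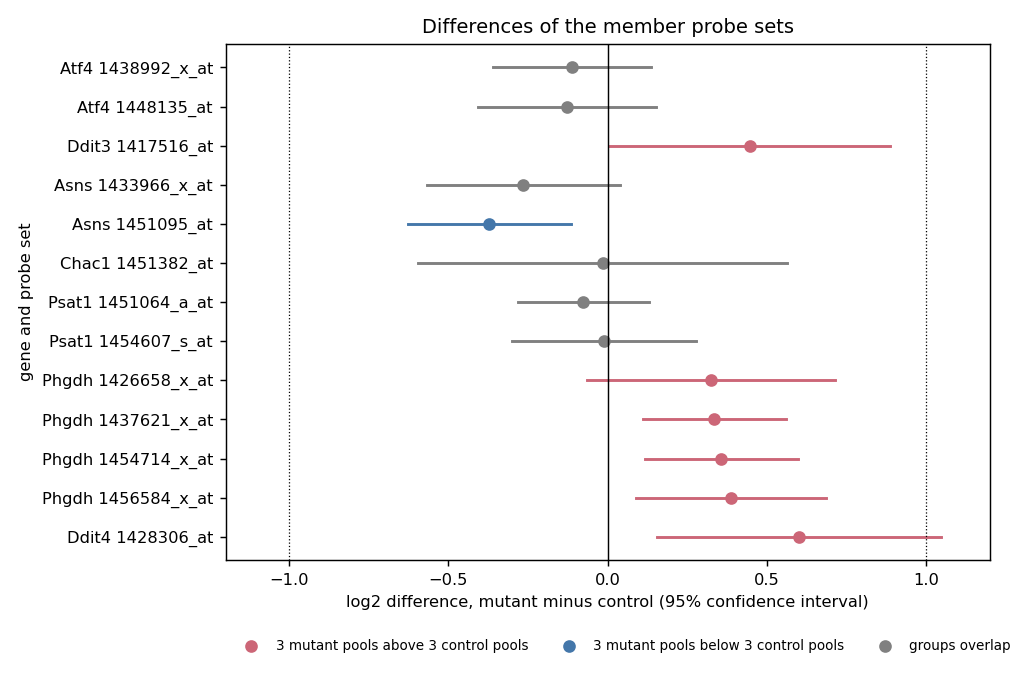
Log2 difference (mutant minus control) of each member probe set, as a point with its 95% confidence interval from limma over 3 pools per genotype; dotted lines mark 2-fold changes. Red and blue points are those whose mutant pools all lie above or below the control pools; 12 of the 13 intervals stay inside the dotted lines.

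The arrays were split into sets by the 3' to 5' signal ratio of the dap spike-in transcript, and the genotypes were spread unevenly over them. It was 19.6 to 23.8 in control pool 1 and mutant pools 1 and 2, and 10.2 to 12.2 in the other 3, so that each set held 1 pool of 1 genotype and 2 of the other and allows no test of its own. The thr, phe and lys spike-in transcripts ranked the same arrays higher, but with smaller steps between the sets. The lowest ratio of the high set and the highest of the low set were 8.57 and 6.58 for thr. They were 2.05 and 2.00 for phe, and 3.51 and 3.43 for lys. A split into sets is thus clear for dap only. Within the sets, 11 of the 13 probe sets kept 1 sign. Ddit4 differed by 0.46 log2 units at the high ratio and by 0.66 at the low, Ddit3 by 0.60 and 0.37, and Asns (1451095_at) by −0.32 and −0.41. Each Phgdh probe set differed more at the high ratio, with 0.38 and 0.20 for 1437621_x_at, 0.41 and 0.19 for 1454714_x_at, 0.51 and 0.14 for 1456584_x_at, and 0.77 and 0.11 for 1426658_x_at. The part of this ratio in the Phgdh values was not tested. With the spike-in set as a block in the fit, 0 of 13 members passed, against 680 of all 19551 probe sets. The smallest adjusted p in that fit were 0.0625 for Asns 1433966_x_at (−0.37), 0.0849 for Asns 1451095_at (−0.37) and 0.0934 for Phgdh 1426658_x_at (0.44).

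**Figure D3:**
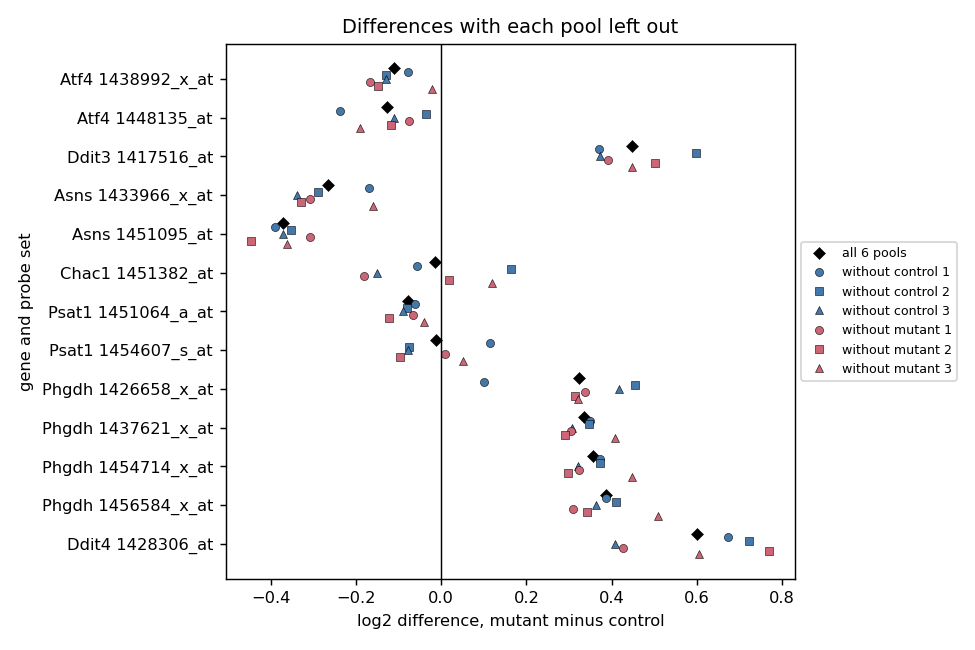
Log2 difference (mutant minus control) of each member probe set with all 6 pools (black diamonds) and with each control pool (blue) or mutant pool (red) left out. Ddit3, Phgdh, Ddit4 and Asns keep their side of 0 in every fit drawn, 1426658_x_at of Phgdh moves to 0.10 without control pool 1, and Chac1 and 1 probe set of Psat1 cross 0.

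By the root mean square difference over the 6 pools between profiles centred on their own mean log2 signal, the named genes closest to Phgdh (1437621_x_at) among 9953 compared were Dync2li1 (0.023 log2 units), Rala (0.045) and Stx8 (0.045). Dync2li1, a light intermediate chain of the dynein of cilia, read 498, 503 and 481 in control and 667, 657 and 551 in mutant. The tight controls and the lower value of mutant pool 3, which it shared with Phgdh, follow from its choice by likeness over these same pools.

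The wider Atf4 pathway was described by a list of 55 further genes, of which 46 were measured, each at its probe set with the highest mean signal. Of these, 0 rose and 0 fell at an adjusted p under 0.05, against 0.34% and 0.466% of 10290 genes, and 9 had an unadjusted p under 0.05, against 14.6%. Log2 differences were positive for 16 and negative for 30, with a median of −0.06, while over all genes the median was 0.02. Mutant pools lay above control pools for 4 of the 46 (11.8% of all genes) and below for 8 (9.49% of all genes).

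Among the eIF2 alpha kinases, phosphatase subunits and exchange factor, 7 of 8 genes were measured. Eif2ak4, or GCN2, the kinase that senses uncharged tRNA, read 868, 742 and 738 in control and 640, 623 and 626 in mutant, with all mutant pools lower (log2 difference −0.31, SE 0.13, adjusted p = 0.366). Eif2ak2, or PKR, the kinase for double-stranded RNA, read 113, 89.6 and 88.9 in control and 266, 137 and 123 in mutant (0.76, SE 0.29, adjusted p = 0.305) at the 15.9th percentile of signal, and its other 2 probe sets had smaller differences, 0.51 and 0.15, with overlapping genotypes. Eif2ak3, or PERK, the kinase of the endoplasmic reticulum, had −0.06 (adjusted p = 0.900), and Ppp1r15b, which directs dephosphorylation of eIF2 alpha, −0.23 (adjusted p = 0.468). The kinases of this pathway therefore had differences of both signs, and none passed.

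Of 9 measured transcription factors and stress regulators, the 2 with the smallest p were higher in every mutant pool. Nfe2l2, or NRF2, a regulator of antioxidant genes, read 775, 887 and 903 in control and 1131, 1265 and 1058 in mutant (0.43, SE 0.13, adjusted p = 0.205). Eif4ebp1, a translational repressor and Atf4 target, read 5219, 4634 and 4713 in control and 6465, 5991 and 5689 in mutant (0.32, SE 0.10, adjusted p = 0.218), and its other 2 probe sets had 0.21 and 0.23 with overlapping genotypes. Jdp2, a bZIP repressor, had −0.30 (adjusted p = 0.615), and Atf5, a bZIP factor induced beside Atf4, 0.20 (adjusted p = 0.656).

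Amino acid transporters and tRNA synthetases held the lowest values of the list. Eprs, which charges tRNAs for glutamate and proline, read 7271, 6019 and 6022 in control and 3999, 4704 and 4431 in mutant, and no mutant pool reached the lowest control pool. Its log2 difference was −0.55 (SE 0.11, adjusted p = 0.0682), or 0.681-fold (0.572 to 0.811). The other 2 probe sets of Eprs also had all mutant pools below control, with −0.47 and −0.54. Eprs passed with quantile normalization (adjusted p = 0.0472), with the spike-in set as a block (0.00543), with 1 probe set per gene (0.0373) and with array weights. The spike-in block called 680 and array weights 902 of all probe sets, in place of 109. At an adjusted p under 0.05, Eprs did not pass in the other alternatives, with 0.0814 to 0.298 when a pool was left out. Of the 14 synthetase and tRNA export genes, all measured, 11 had negative differences, with a median of −0.07, and 4 had mutant pools below control (9.49% of all genes), among them Eprs, Aars, for alanine (−0.27, adjusted p = 0.358), and Nars, for asparagine (−0.24, adjusted p = 0.508); Tars, for threonine, had −0.15 (adjusted p = 0.660). The transporter Slc38a2, or SNAT2, which carries small neutral amino acids and is induced when they are scarce, read 8119, 9118 and 7974 in control and 5703, 6137 and 6718 in mutant (−0.44, SE 0.10, adjusted p = 0.0988), and passed with the spike-in block (0.0347) and with array weights. With a pool left out, the adjusted p of Slc38a2 was 0.0641 to 0.383. Its weaker probe sets did not part the genotypes, with −0.22 and 0.21. Slc1a4, a serine and alanine transporter, had −0.52 (SE 0.19, adjusted p = 0.295), Slc7a1, which carries arginine and lysine, −0.32 (adjusted p = 0.521), and Slc3a2, the heavy chain of several exchangers, 0.13 (adjusted p = 0.705).

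In amino acid synthesis and one-carbon metabolism, 9 of 10 genes were measured, with 4 positive and 5 negative differences. Besides Psph, Mthfd1l, a mitochondrial folate enzyme, was lower in every mutant pool (2592, 2292 and 2327 in control, 1980, 1931 and 2050 in mutant; −0.27, SE 0.11, adjusted p = 0.326). Cbs, which makes cystathionine, had 0.51 (adjusted p = 0.421) at the 8.09th percentile of signal, and Pck2, a mitochondrial gluconeogenic enzyme, −0.28 (adjusted p = 0.672).

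The other arms of the endoplasmic reticulum stress response, run by Xbp1 and Atf6, were followed through 24 measured genes of 25 listed. Of these, 0 rose and 0 fell with limma (0.34% and 0.466% of all genes), and 2 had an unadjusted p under 0.05 (14.6% of all genes). Mutant pools lay above control for 3, near the share of all genes (11.8%), and below for 0 (9.49%), and the median was −0.02. Hspa5, or BiP, the main chaperone of this compartment, read 21529, 21608 and 18187 in control and 17254, 20077 and 20348 in mutant (−0.09, SE 0.10, adjusted p = 0.770). Among the 15 chaperones and folding enzymes, Dnajb11, a co-chaperone of BiP, was higher in every mutant pool (2175, 1760 and 1940 against 2393, 2857 and 2458; 0.39, SE 0.12, adjusted p = 0.220). Manf, a secreted stress-induced factor, had 0.29 (adjusted p = 0.336), Ero1b, a thiol oxidase, 0.52 (adjusted p = 0.395) and Dnajc3, which restrains PERK, −0.25 (adjusted p = 0.483). Weaker probe sets of Dnajc3 had 0.19, −0.02, −0.06 and −0.29, all with overlapping genotypes. At the probe set with the highest mean signal, the 4 transducers had negative values close to 0. These were Creb3l2 (−0.17, adjusted p = 0.742), Atf6 (−0.09, adjusted p = 0.880), Xbp1 (−0.06, adjusted p = 0.939) and Ern1 (−0.02, adjusted p = 0.980). A weaker Atf6 probe set had 0.37 with all mutant pools above control (adjusted p = 0.446), and another had −0.05 with overlapping genotypes. A weaker Ern1 probe set had 0.12, also with overlapping genotypes. Of the 5 genes of endoplasmic reticulum degradation, Herpud1, which Atf4 also induces, had −0.33 (adjusted p = 0.506), Edem1 0.13 (adjusted p = 0.742), Derl1 0.09 (adjusted p = 0.774) and Syvn1 −0.07 (adjusted p = 0.861). Weaker probe sets of Derl1 had 0.45 and −0.09 with overlapping genotypes, and −0.20 with all mutant pools below control. A weaker Edem1 probe set had 0.22 with all mutant pools above control, and a weaker Herpud1 probe set −0.34 with overlapping genotypes.

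**Figure D4:**
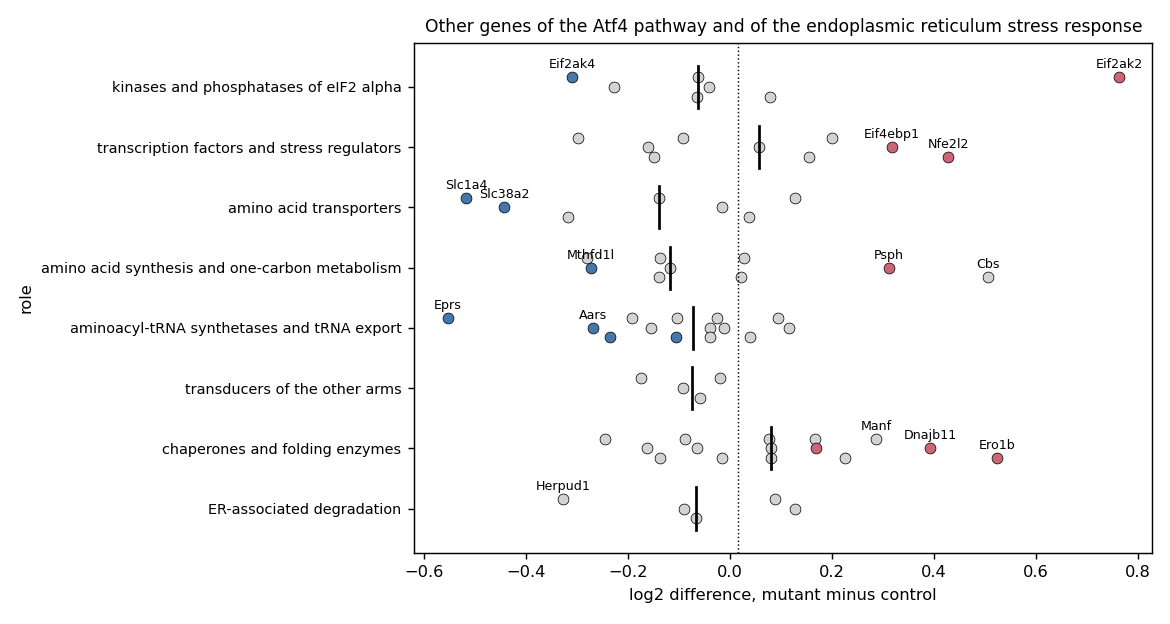
Log2 difference (mutant minus control) of the 46 further Atf4 pathway genes and the 24 genes of the other endoplasmic reticulum stress arms, by role, 1 probe set per gene; black bars are the medians by role and the dotted line is the median of all genes, 0.02. Red and blue points have all mutant pools above or below the control pools, and Eprs lies lowest at −0.55 and Eif2ak2 highest at 0.76.

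Marker signals of several cell types differed between the genotypes beside these values, and their part in them was not tested. In bulk RNA, fewer cells of a type and less RNA per cell cannot be told apart. Over all 10290 genes, 0.34% rose and 0.466% fell, and differences were positive for 5440 and negative for 4850. Of 10 measured PSM markers, all had negative differences and 1 fell (Ripply2), and their summed signal was 10546 to 13245 in control and 6023 to 8801 in mutant. All 12 surface ectoderm markers had positive differences and 2 rose (Krt19 and Epcam), with sums of 15956 to 18239 and 24235 to 25757. Of 9 endothelial markers 8 had negative differences and 2 fell, while 1 had 0.77 with all mutant pools above control. The endothelial sums were 11356 to 12362 in control and 6389 to 9226 in mutant. Of 4 lateral mesoderm markers 3 fell, with sums of 5257 to 5526 against 2606 to 3296. Sums were 32059 to 44561 in control and 44586 to 62561 in mutant for 7 blood markers, of which 0 passed, 5503 to 7031 and 7949 to 10618 for 7 gut endoderm markers, of which 1 rose (Epcam, also in the surface ectoderm list) and 1 fell (Sox17, also in the endothelial list), and 3611 to 4703 and 3911 to 5608 for 3 neural tube markers, of which 0 passed. Among the blood markers 6 had positive differences and 1 had −0.74 with all mutant pools below control. No marker was listed at 0, and Dll1, a Notch ligand of the PSM, read 3089, 3497 and 3267 in control and 1743, 1590 and 2844 in mutant. Of 6 measured immediate early and heat shock genes 1 rose, Egr1, an immediate early transcription factor, 5.62-fold (4.15 to 7.61, adjusted p = 0.000212).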

How the data were processed

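The deposited table holds summarised, scaled intensity on a linear scale, a value for each probe set on each array. Affymetrix Expression Console and MAS5 are its tools, per the submitters' processing notes; versions, scaling target, genome build and the rule that left 19606 probe sets are not given in the sources used here. After removal of 55 array controls, 17348 probe sets had 1 gene symbol in the platform annotation, 494 had several and 1709 had none.

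Values were taken as log2(signal + 1), with no filter on weak signals, and the genotypes were compared with limma (version 3.58.1, R 4.3.3; empirical Bayes with an intensity trend, two-sided), with Benjamini-Hochberg adjustment over 19551 probe sets; an adjusted p under 0.05 was called. The script was tested on simulated data. Intervals are 95% intervals from that fit, and fold changes are 2 to the power of the log2 difference. SE is the moderated standard error. The number of arrays limits the precision (median SE 0.17), and the labels call the pools biological replicates without saying more of their litters. The members and the gene lists were chosen with earlier results of these data known, as was the split by spike-in ratio at 15. Besides the members, genes were named as the called genes of each pathway list and up to 4 more per role with the smallest p; Hspa5 and Dll1 were named after their values were seen. Genes of like pattern were the 3 nearest to the member with the smallest p. Alternatives were 2 filters, offsets of 16 and 64, median centring, quantile normalization, no trend, array weights, replicate and spike-in blocks, a threshold of 0.1, 1 probe set per gene, no cross-hybridising probe sets, and each pool left out. The members' upstream sequences are those of RefSeq.

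The labels do not say that equal replicate numbers mark a shared litter or day, so no block entered the comparison. Residuals of pools with equal numbers correlated at 0.18, −0.27 and 0.27. With 3 pools per genotype, these values cannot settle whether the pools were paired.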

Additional observations from a re-analysis of the deposited data

How the results depend on the processing

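Of 19 alternatives, all planned, array quality weights gave 4 called members, all higher in mutant (Ddit4 and 3 probe sets of Phgdh), and the other 18 gave 0 among the members they tested; none gave a tested member called lower. All 13 were tested except with each filter (11, without Ddit3 and Chac1), with 1 probe set per gene (7) and without cross-hybridising probe sets (6, with no probe set of Phgdh). With array weights the Atf4 pathway list had 1 gene called higher (Eif4ebp1) and the endoplasmic reticulum list 1 (Dnajb11). Pathway genes called lower numbered 1 with quantile normalization (Eprs), 1 with 1 probe set per gene (Eprs), and 2 (Eprs and Slc38a2) with array weights, with the spike-in block and at an adjusted p under 0.1. The causes were not tested.

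Among single members, 11 of 13 kept their sign in each alternative that tested them, 17 to 19 of the 19. Several alternatives left the log2 difference as in the main fit, so the sign could not change there. They were the filters, no trend, the replicate block, the looser threshold, a single probe set per gene and no cross-hybridising probe sets. The difference could move only with the offsets, median centring, quantile normalization, array weights, the spike-in block and each pool left out. Chac1 turned to 0.13 with array weights, and leaving out each pool gave −0.18 to 0.16. Psat1 1454607_s_at turned to 0.013 with quantile normalization and 0.098 with array weights, and leaving out each pool gave −0.097 to 0.11.

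With the replicate number as a block, 0 members passed (adjusted p 0.134 for Ddit4, 0.247 for Asns 1451095_at, 0.262 for Phgdh 1437621_x_at), 218 of all probe sets passed in place of 109, and 2 of 6 arrays correlated best with their own number. The count over all probe sets was 47 with no trend, 48 above the 60th percentile, 680 with the spike-in block, 902 with array weights, 165 with 1 probe set per gene, 301 at an adjusted p under 0.1, and 33 to 206 with a pool left out: 175, 39 and 37 without control pools 1, 2 and 3, and 33, 39 and 206 without mutant pools 1, 2 and 3. With 3 pools per genotype, a difference as large as that of Ddit4 did not pass at its spread in the main fit. Of the alternatives, only array weights called it.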
